A study of Rattus norvegicus with 12 samples.

Results

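The genes described here are 41 antioxidant and oxidase genes: 5 of the NADPH oxidases, 3 superoxide dismutases, 11 enzymes that remove peroxides, 5 genes of the thioredoxin system, 8 of the glutathione system, 5 of the Nrf2 and heme oxygenase response, 1 uncoupling protein and 3 metallothioneins. They were taken by name from an array on which 25427 items could be tested, 14095 of them with a gene name. The list was chosen with earlier results of these data known. Of the 41, 40 had a probe and 37 could be tested. The probes of Cybb, Nox4 and Gclm were too dim, and no probe carried the name Mt2A. RNA was taken by micropunch from the rostral ventrolateral medulla (RVLM) in untreated male F344 rats, an inbred strain, at 3 months (young), 12 months (middle-aged) and 24 months (aged), with 3 animals at each age. The RVLM is the brainstem region that drives the sympathetic nerves to heart and vessels. The 9 animals were run on 12 one-colour arrays on 3 slides, because replicate 3 of each age was run on a pair of arrays. Slide 1 held no aged animal and slide 2 no young animal, and only slide 3 held all ages. Age and slide are thus confounded in part, and the main fit has no term for slide. A micropunch holds neurons, glia, vessels and blood together, so a difference in RNA per cell and a difference in the number of cells of a type cannot be told apart.

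Cells make superoxide with NADPH oxidases and as a by-product of respiration. The phagocyte oxidase is built from a membrane pair, the catalytic subunit Nox2 (gene Cybb) and its partner p22phox (Cyba), and from cytosolic subunits that join it on activation, among them p47phox (Ncf1), p40phox (Ncf4) and a Rac GTPase. Superoxide dismutases turn superoxide into hydrogen peroxide. Catalase, the glutathione peroxidases and the peroxiredoxins then remove the peroxide, and thioredoxin and glutathione, both kept reduced with NADPH, supply the electrons. The transcription factor Nrf2 (Nfe2l2), held down by Keap1, drives many of these genes through antioxidant response elements. In the brain the phagocyte oxidase is known chiefly from microglia, and RVLM superoxide is known from work on sympathetic drive and blood pressure.

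Each array had 43379 non-control spots. No spot was saturated (0 on every array), the share well above background was 73.5% to 77.1%, and precision is limited by having 3 animals at each age. Each value below is a log2 signal minus the array's 75th percentile, so a level of 0 is a probe as bright as that percentile, and levels of different probes are not compared. A difference is given in log2 units with its limma standard error (SE), n = 3 animals per age, and "rose" or "fell" is used where the limma p was under 0.05 after Benjamini-Hochberg adjustment over the 25427 items. On the second principal component of all items, which held 21.7% of the variance, aged replicate 3, middle-aged replicate 3 and young replicate 2 stood apart from the other 6 animals. Of the markers of the C1 neurons of this region, Th, Dbh and Slc18a2 were measured above background in every animal, and Pnmt was not matched to a probe. Dbh and Slc18a2 were lower in every aged animal than in any young one, by −0.92 ± 0.20 and −0.53 ± 0.16. Neither passed (limma, adjusted p = 0.066 and 0.16), and Th differed by −0.04 ± 0.26. Each of the 37 tested genes was well above background on all 12 arrays. Over these genes, repeat arrays of an animal lay a median of 0.03 log2 units from each other (highest 0.25, for Gstm2), and the median SD between animals of an age was 0.11.

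Between 24 and 3 months the oxidase subunits were higher and nearly all the enzymes that dispose of superoxide and peroxide changed little. Of the 37 genes tested, 3 rose and 0 fell: the oxidase subunits Ncf1 and Cyba and the heme oxygenase Hmox1. Over all items 1.57% rose and 0.472% fell. At an unadjusted limma p under 0.05, 12 of the 37 were higher and 2 were lower in aged animals, against 10.3% higher and 4.94% lower among all items. The aged and young animals did not overlap for 11 genes that were higher and 3 that were lower in aged animals, against 14% and 8.68% of all items. The median difference was 0.08 over the 37 genes and 0.03 over all items. For 18 of the 37 genes the aged and young means differed by under 0.1, and for 11 by 0.25 or more. Over all items the lower and upper quartiles of the difference were −0.08 and 0.16. Outside the oxidase group, 1 of 34 tested genes rose.

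**Figure D1:**
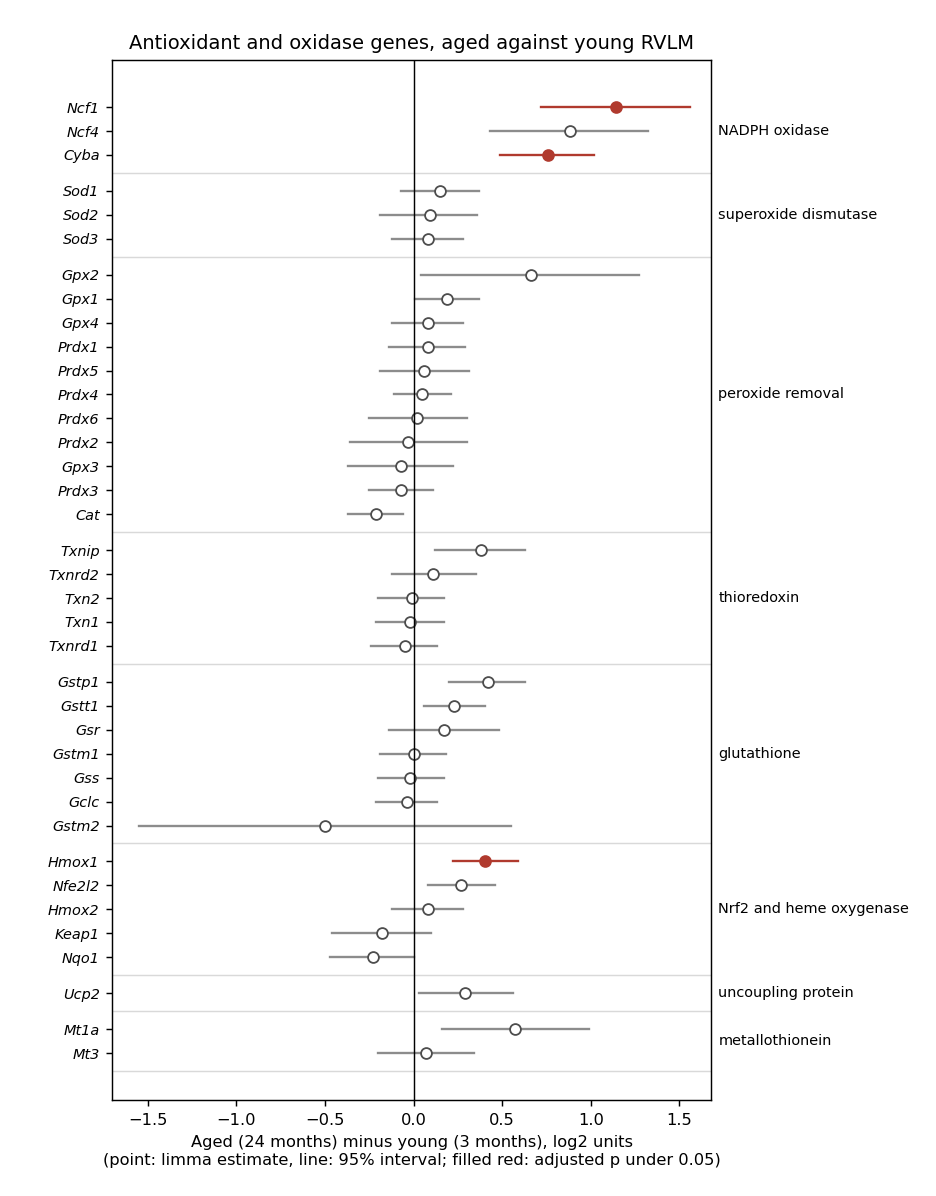
Difference between aged (24 months) and young (3 months) animals for the 37 tested genes, in log2 units, ordered within each functional group; points are limma estimates from 3 animals per age and lines are their 95% intervals, with red filled points for an adjusted p under 0.05. The 3 oxidase subunits lie at 0.76 to 1.14, while the superoxide dismutases lie at 0.08 to 0.15.

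All 3 NADPH oxidase genes that could be tested were higher with age, and 2 of them rose. The Cyba probe lies at chr19:52726312-52726371 and the Ncf1 probe at chr12:23449881-23449940 on the rat build rn3, per the array files, which do not say in which part of the gene. Cyba, the p22phox subunit that anchors and stabilises the catalytic subunit, read −0.11, −0.50 and −0.33 at 3 months, −0.03, 0.05 and −0.02 at 12 months, and 0.61, 0.31 and 0.41 at 24 months. The 3 ages did not overlap for Cyba: every middle-aged animal lay above every young one and below every aged one. It rose by 0.76 ± 0.11 in aged against young animals, a 1.69-fold difference (adjusted p = 0.013), and was the only one of the 37 genes to pass the moderated F test over the 3 ages (limma, adjusted p = 0.04), which 1.15% of all items passed.

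Ncf1, the p47phox organiser that is phosphorylated when the oxidase is switched on, read −1.43, −1.11 and −1.76 at 3 months, −1.04, −0.79 and −0.46 at 12 months, and −0.20, −0.35 and −0.32 at 24 months. Here too no animal of one age overlapped with another age. Ncf1 rose by 1.14 ± 0.18 in aged against young animals, a 2.21-fold difference (limma, adjusted p = 0.018). Its adjusted p was 0.055 to 0.066 when young replicate 1, young replicate 3 or any 1 aged animal was left out; Cyba missed the threshold without young replicate 3 (adjusted p = 0.058). Without the 3 animals that stood apart, neither passed (limma, adjusted p = 0.19 for Cyba and 0.067 for Ncf1), with differences of 0.68 and 1.32.

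Ncf4, the p40phox subunit that binds phosphoinositides of the phagosome membrane, read −1.66, −2.28 and −2.06 at 3 months, −1.57, −1.30 and −1.50 at 12 months, and −0.75, −1.37 and −1.25 at 24 months. All aged animals lay above all young animals, and aged and middle-aged animals overlapped. The difference of 0.88 ± 0.19 between aged and young animals did not pass (limma, adjusted p = 0.065). Its probe is annotated in the array files only by a predicted locus, LOC500904, and was matched to Ncf4 by gene ID. Slide 3 alone held all 3 ages, with 1 animal of each, replicate 3. Of these, the aged and middle-aged animals stood apart on the second principal component and the young one did not. On slide 3 aged minus young was 0.70 for Cyba, 1.42 for Ncf1 and 0.76 for Ncf4. With slide as a block over all 12 arrays these differences were 0.69 ± 0.13, 1.13 ± 0.23 and 0.75 ± 0.21, with adjusted p of 0.036 and 0.05 for Cyba and Ncf1, both under the threshold before rounding, and 0.16 for Ncf4 in the limma fit.

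The catalytic subunits among the listed genes, Cybb and Nox4, did not pass the filter for dim signals. The Cybb probe was well above background on 2 of 4 aged, 3 of 4 middle-aged and 3 of 4 young arrays, and the Nox4 probe on 0 of 12. Nox4 makes a constitutively active oxidase that needs only p22phox. Of 16 other oxidase genes on a list of relatives, 11 could be tested and 1 rose, Rac2, the Rac GTPase of blood-lineage cells. The catalytic oxidases Nox1, Duox1 and Duox2 were above background on all 12 arrays and did not pass, at 0.22 ± 0.21, 0.10 ± 0.11 and −1.41 ± 1.54. Rac2 read −2.60, −2.60 and −2.86 at 3 months, −2.45, −2.21 and −2.58 at 12 months, and −1.67, −2.09 and −2.06 at 24 months. It was higher in every aged animal than in any other, and rose by 0.75 ± 0.14 in aged against young animals (limma, adjusted p = 0.038). The call for Rac2 was kept in 6 of 21 alternative fits. Rac1, the Rac GTPase of most cells, was 0.06 ± 0.07 higher (limma, adjusted p = 0.7), with a 95% interval of −0.09 to 0.21. The xanthine, aldehyde and monoamine oxidases Xdh, Aox1, Maoa and Maob and the nitric oxide synthase Nos3 did not pass, at −0.28 to 0.38.

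Microglia markers moved with the oxidase subunits. Of 15 microglia markers 12 rose and 0 fell in aged against young animals, with a median difference of 0.92. Tyrobp, a signalling adaptor of microglia, rose by 1.38 ± 0.11 (limma, adjusted p = 0.00095), and Aif1, which codes for Iba1, by 0.92 ± 0.10 (adjusted p = 0.0034). The list median, relative to the mean of young animals, was −0.08 to 0.10 at 3 months, 0.44 to 0.66 at 12 months and 0.80 to 0.97 at 24 months, beside −0.19 to 0.20, 0.39 to 0.64 and 0.63 to 1.23 for the 3 oxidase genes. Among markers of perivascular macrophages and neutrophils, 2 of 6 tested rose, Lyve1 and Pf4, and all 6 were higher at an unadjusted p under 0.05. The neutrophil genes S100a9, at 2.0 ± 0.42 (limma, adjusted p = 0.052), and Csf3r, at 0.74 ± 0.16 (adjusted p = 0.058), were higher in every aged animal than in any young one and did not pass, nor did S100a8 (adjusted p = 0.16); Mpo was too dim and Elane had no matched probe. The median of this list was −0.16 to 0.15 at 3 months, 0.19 to 0.67 at 12 months and 0.79 to 1.05 at 24 months. Of 3 tested lymphocyte markers 1 rose, Cd6, by 1.25 ± 0.14 (limma, adjusted p = 0.0037). The part of all these cells in the rise of Cyba and Ncf1 was not tested.

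**Figure D2:**
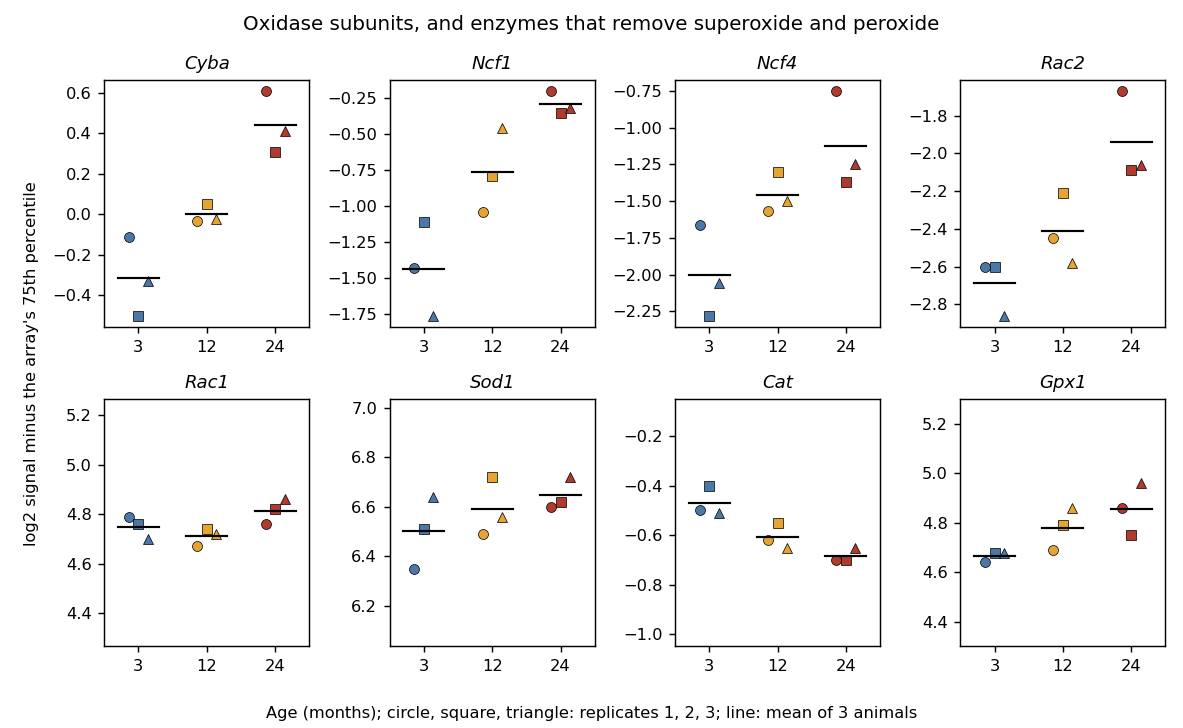
Log2 signal minus the array's 75th percentile in each animal at 3, 12 and 24 months, for oxidase subunits and the Rac GTPases, and for Sod1, Cat and Gpx1; symbols mark replicates, lines the mean of 3 animals, and each panel has its own level but spans at least 1 log2 unit. Cyba and Ncf1 step up at each age without overlap, while the aged and young animals overlap for Rac1 and Sod1.

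The stretches before the starts of Cyba and Ncf1 are shown because these are the oxidase genes that rose together. Each is the 250 bases upstream of the RefSeq start on the build GRCr8, written 5′ to 3′ on the gene's strand, with Cyba at chr19:67404215-67404464, minus strand, and Ncf1 at chr12:28121635-28121884, plus strand. A search on both strands used the core of the antioxidant response element, TGACNNNGC, and the core GAGGAA bound by the myeloid factor PU.1; matches are in capitals.
Cyba: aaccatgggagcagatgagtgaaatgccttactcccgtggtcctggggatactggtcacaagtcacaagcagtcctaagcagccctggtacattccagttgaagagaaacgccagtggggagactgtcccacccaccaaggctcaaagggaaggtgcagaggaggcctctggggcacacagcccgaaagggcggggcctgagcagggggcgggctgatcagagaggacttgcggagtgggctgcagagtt
Ncf1: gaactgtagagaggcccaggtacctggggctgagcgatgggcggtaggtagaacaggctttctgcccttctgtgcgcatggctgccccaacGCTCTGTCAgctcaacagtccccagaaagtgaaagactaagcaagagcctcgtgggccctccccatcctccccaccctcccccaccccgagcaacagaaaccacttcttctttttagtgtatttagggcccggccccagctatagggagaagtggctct
The Cyba window held neither motif. The Ncf1 window held 1 match to TGACNNNGC on the opposite strand, 159 bases before the start, and none to GAGGAA. Over all 33469 promoter windows of this length, 10.1% held the first motif and 23.3% the second. Of 34 listed genes with a promoter entry, 10 held TGACNNNGC and 9 held GAGGAA.

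The superoxide dismutases did not pass. Sod1, the cytosolic copper-zinc enzyme, read 6.35, 6.51 and 6.64 at 3 months, 6.49, 6.72 and 6.56 at 12 months, and 6.60, 6.62 and 6.72 at 24 months. The 3 ages overlapped, and the aged animals were 0.15 ± 0.10 above the young (limma, adjusted p = 0.52), with a 95% interval of −0.07 to 0.37. Its other probe gave 0.13. Sod2, the mitochondrial manganese enzyme, differed by 0.09 ± 0.12 (95% interval −0.19 to 0.36). Sod3, the secreted enzyme, read 2.33, 2.21 and 2.16 at 3 months, 2.03, 2.21 and 2.26 at 12 months, and 2.29, 2.26 and 2.40 at 24 months. Its ages overlapped as well, and the difference was 0.08 ± 0.09 (95% interval −0.12 to 0.28). The interval of each of the 3 ends below the difference seen for either oxidase gene that rose. The copper chaperone of Sod1, Ccs, was 0.19 ± 0.07 higher and did not pass (limma, adjusted p = 0.23).

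Among the 11 enzymes that remove peroxides none passed, and the median difference between aged and young animals was 0.05. Catalase (Cat), the peroxisomal enzyme, read −0.50, −0.40 and −0.51 at 3 months, −0.62, −0.55 and −0.65 at 12 months, and −0.70, −0.70 and −0.65 at 24 months. Its aged values all lay below its young values, and its animals varied little within an age (SD 0.05). The difference of −0.21 ± 0.07 did not pass (limma, adjusted p = 0.19), and it was negative in all 21 alternative fits, none of which called it. Gpx1, the main cytosolic glutathione peroxidase, read 4.64, 4.68 and 4.68 at 3 months, 4.69, 4.79 and 4.86 at 12 months, and 4.86, 4.75 and 4.96 at 24 months. On this probe its young animals lay below all older ones, by a difference of 0.19 ± 0.08 between aged and young that did not pass (limma, adjusted p = 0.31). Its other probe gave 0.13 with the ages overlapping: aged replicate 2 read 4.44, below the young animals at 4.48 to 4.64.

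Gpx2, the glutathione peroxidase best known from the gut, had the highest difference of this group and the widest spread between animals. It read −4.12, −3.95 and −3.41 at 3 months, −3.24, −3.17 and −3.89 at 12 months, and −3.06, −2.83 and −3.61 at 24 months. Aged replicate 3 and middle-aged replicate 3 lay within the young range, and the difference of 0.66 ± 0.27 did not pass (limma, adjusted p = 0.3). It was 0.28 with normexp background correction, and within slide 3 aged minus young was −0.27. A second Gpx2 probe was below the filter for dim signals. Gpx3, the plasma form, and Gpx4, which reduces lipid peroxides in membranes, differed by −0.07 and 0.08.

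The 6 peroxiredoxins, which reduce peroxides with electrons from thioredoxin or, for Prdx6, from glutathione, lay between −0.07 (Prdx3, mitochondrial) and 0.08 (Prdx1, cytosolic). Prdx6 was the least changed of the peroxide group: it read 3.05, 3.01 and 3.18 at 3 months, 3.01, 3.17 and 3.09 at 12 months, and 3.09, 2.87 and 3.35 at 24 months, a difference of 0.02 ± 0.12 (95% interval −0.25 to 0.30) whose sign turned under quantile or median scaling. For Prdx2, the most uneven of the 6, the 95% interval was −0.36 to 0.30, and for Prdx4, the least uneven, −0.11 to 0.21. Of 25 listed relatives in the peroxide and thioredoxin systems, among them sulfiredoxin (Srxn1), the sestrins, glutaredoxins and methionine sulfoxide reductases, 22 were tested and 0 passed, with differences of −0.24 to 0.30.

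The thioredoxins and their reductases also changed little, and the largest difference of this group was in their inhibitor. Txnip, which binds reduced thioredoxin and blocks it, read 0.08, 0.24 and 0.03 at 3 months, 0.15, 0.01 and 0.30 at 12 months, and 0.36, 0.67 and 0.44 at 24 months. Every aged animal lay above every younger one, and young and middle-aged animals overlapped. Txnip was 0.38 ± 0.11 higher in aged than in young animals and did not pass (limma, adjusted p = 0.16). Against middle-aged animals it was 0.34 higher (limma, adjusted p = 0.37). It was positive in all 21 alternative fits, and none called it.

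Txn1, the cytosolic thioredoxin, differed by −0.02 ± 0.08 and Txnrd1, its reductase, by −0.05 ± 0.08. The 3 other Txnrd1 probes gave −0.06, 0.10 and 0.15. Txn2, the mitochondrial thioredoxin, read 1.99, 2.12 and 1.90 at 3 months, 1.99, 2.03 and 2.13 at 12 months, and 2.02, 1.93 and 2.03 at 24 months. It differed by −0.01 ± 0.08, and its sign turned to 0.01 with slide as a block. Txnrd2, the mitochondrial reductase, differed by 0.11 ± 0.10. The 95% intervals of Txn1 and Txn2 ended at 0.17 on the upper side.

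In the glutathione system the genes for synthesis and recycling of glutathione changed little, and 2 transferases, Gstp1 and Gstt1, were higher without passing. Gclc, the catalytic subunit of the rate-limiting enzyme, differed by −0.04 ± 0.07, with every aged animal just below every young one, Gss, glutathione synthetase, by −0.02 ± 0.08, and Gsr, which recycles oxidised glutathione, by 0.17 ± 0.14. None of these passed. Gclm, the modifier subunit, was well above background on 1 of 12 arrays. Gstp1, the pi-class transferase, read 6.11, 6.23 and 6.40 at 3 months, 6.38, 6.57 and 6.45 at 12 months, and 6.59, 6.67 and 6.74 at 24 months. Every aged animal exceeded all younger ones. The difference of 0.42 ± 0.09 between aged and young animals fell just outside the threshold (limma, adjusted p = 0.069). It was called in 4 of 21 alternative fits, with a limma adjusted p of 0.039 after quantile normalization and 0.028 with all 12 arrays and animal as a random block.

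A second Gstp1 probe, 0.32 higher in aged animals, read 4.42, 4.40 and 4.39 at 3 months, 4.62, 4.57 and 4.62 at 12 months, and 4.66, 4.72 and 4.79 at 24 months, with no overlap between ages. The brighter of the pair is named Gstp2 in the array files, which RefSeq lists as a synonym of Gstp1, and close paralogs of a transferase can share a probe. The Gstp1 promoter is shown because an antioxidant response element core lies close to its start. It lies on GRCr8 at chr1:210769706-210769955, minus strand, 250 bases before the RefSeq start, 5′ to 3′, with the match to TGACNNNGC in capitals, 61 bases before the start.
Gstp1: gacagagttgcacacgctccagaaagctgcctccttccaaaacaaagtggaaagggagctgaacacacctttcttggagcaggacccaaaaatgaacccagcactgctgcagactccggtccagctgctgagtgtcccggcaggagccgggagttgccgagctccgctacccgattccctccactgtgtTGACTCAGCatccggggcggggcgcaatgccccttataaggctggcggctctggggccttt

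Gstt1, a theta-class transferase, was 0.23 ± 0.07 higher in aged animals without overlap and did not pass (limma, adjusted p = 0.19). Gstm1, the main mu-class enzyme, read 2.41, 2.20 and 2.19 at 3 months, 2.17, 2.17 and 2.12 at 12 months, and 2.27, 2.19 and 2.33 at 24 months. It was the least changed gene of the group, at 0.00 ± 0.08. Gstm2 rested on 1 animal: young replicate 1 read −2.16, while the other 8 animals read −4.35 to −3.94. Its difference of −0.50 ± 0.46 became 0.17 without that animal (limma, adjusted p = 0.65 with it and 0.49 without it).

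Of 23 related glutathione genes on a wider list, 22 were tested, 2 rose and 0 fell. Gsta1, an alpha-class transferase that also reduces lipid hydroperoxides, read 4.43, 4.18 and 4.35 at 3 months, 4.54, 4.68 and 4.67 at 12 months, and 5.08, 4.96 and 5.28 at 24 months. The ages did not overlap. Gsta1 rose by 0.79 ± 0.10 in aged against young animals, a 1.73-fold difference (limma, adjusted p = 0.0068), and passed the F test (adjusted p = 0.021). The call held when any 1 animal was left out, with adjusted p of 0.013 to 0.032, and was lost without the 3 animals that stood apart (limma, adjusted p = 0.12). Its probe is named Gsta3 in the files. Mgst1, the microsomal transferase, read 1.64, 1.58 and 1.79 at 3 months, 1.86, 1.96 and 1.80 at 12 months, and 2.06, 2.07 and 2.09 at 24 months. Mgst1 rose by 0.40 ± 0.08 (limma, adjusted p = 0.041) and was called in 6 of 21 alternative fits. Of 9 genes that supply NADPH, such as Me1, 8 were tested and 0 passed, at −0.22 to 0.13.

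Among the genes of the Nrf2 and heme oxygenase response, Hmox1 rose and its constitutive relative did not pass. The Hmox1 probe lies at chr19:13974162-13974221 on rn3. Hmox1, the inducible enzyme that breaks down heme to biliverdin, iron and carbon monoxide, read −0.61, −0.41 and −0.60 at 3 months, −0.34, −0.23 and −0.29 at 12 months, and −0.12, −0.20 and −0.08 at 24 months. The 3 ages did not overlap. Hmox1 rose by 0.40 ± 0.08 in aged against young animals, a 1.32-fold difference (limma, adjusted p = 0.041). The call lay close to the threshold and was kept in 5 of 21 alternative fits: it was lost with slide as a block (0.38 ± 0.09, adjusted p = 0.093), and when any 1 animal other than young replicate 2 was left out, while the difference itself stayed at 0.37 to 0.47 when 1 animal was left out. Hmox2, the constitutive enzyme, read 4.52, 4.65 and 4.64 at 3 months, 4.55, 4.57 and 4.77 at 12 months, and 4.66, 4.62 and 4.79 at 24 months. It differed by 0.08 ± 0.09 (95% interval −0.12 to 0.28), and its other probe gave −0.05.

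The list medians of the microglia markers and of the perivascular macrophage and neutrophil markers are given above, and that of the red blood cell markers follows. The median of 6 tested red blood cell markers, relative to the mean of young animals, was −0.19 to 0.27 at 3 months, −0.13 to −0.12 at 12 months and 0.41 to 1.2 at 24 months. The hemoglobin gene Hbb-b1 was 0.73 ± 0.16 higher and did not pass (adjusted p = 0.065). The part of microglia, of macrophages and neutrophils, and of red blood cells in the rise of Hmox1 was not tested. Both ferritin chains, which store the iron that heme oxygenase frees, were higher without passing: Ftl1 by 0.38 ± 0.08 (adjusted p = 0.064) and Fth1 by 0.26 ± 0.07 (adjusted p = 0.1). Of 17 related Nrf2 and iron genes, 13 were tested and 0 passed.

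Nfe2l2, which codes for Nrf2, read 0.87, 0.86 and 1.08 at 3 months, 1.06, 0.97 and 0.94 at 12 months, and 1.26, 1.19 and 1.18 at 24 months. Every aged animal exceeded all others, and the difference of 0.27 ± 0.08 between aged and young animals did not pass (limma, adjusted p = 0.17). Nqo1, a quinone reductase and a textbook target of Nrf2, was lower with age: it read −1.88, −2.02 and −2.13 at 3 months, −2.03, −2.22 and −2.30 at 12 months, and −2.21, −2.17 and −2.37 at 24 months. Its aged animals all lay below its young animals, with a difference of −0.23 ± 0.10 that did not pass (limma, adjusted p = 0.33) and was negative in all 21 alternative fits. Keap1, the inhibitor of Nrf2, differed by −0.18 ± 0.12 and overlapped between ages.

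**Figure D3:**
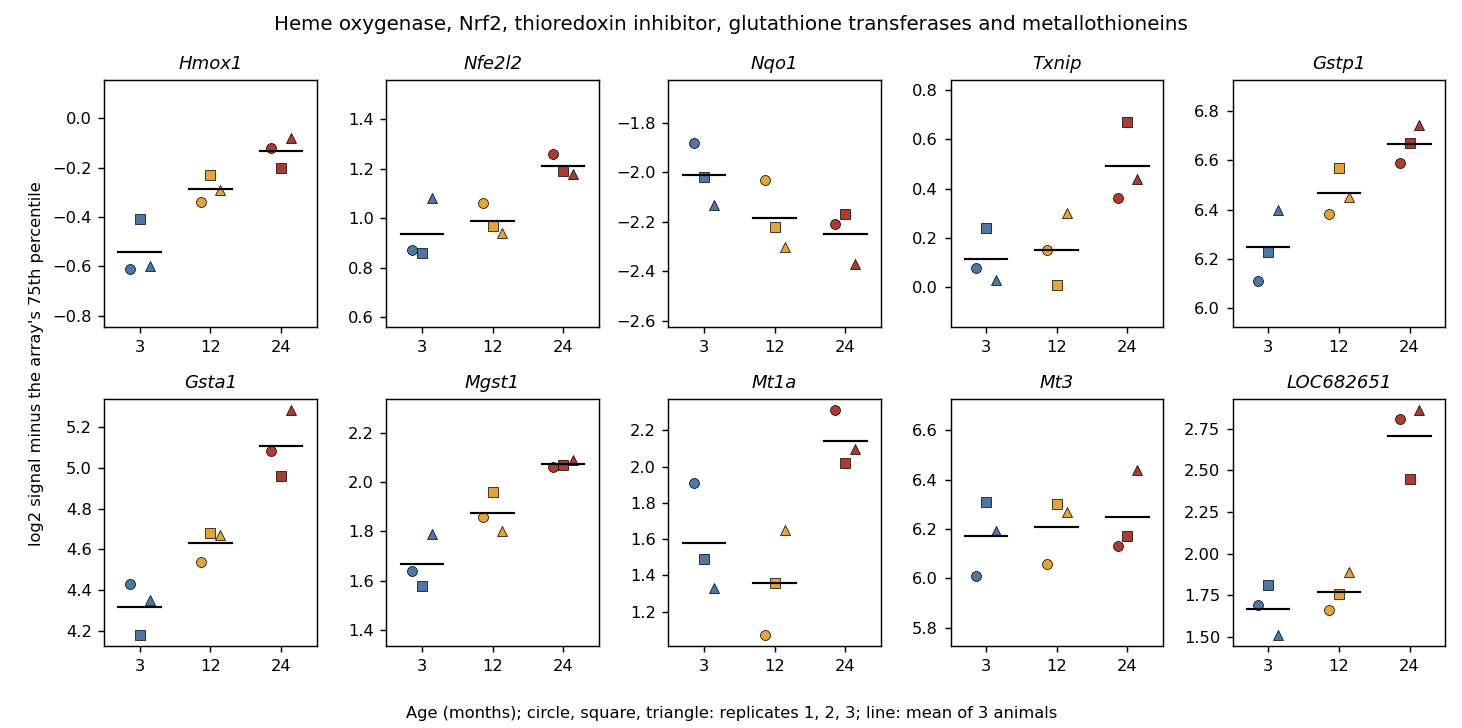
Log2 signal minus the array's 75th percentile in each animal at 3, 12 and 24 months for heme oxygenase, Nrf2 and a target, the thioredoxin inhibitor, transferases and metallothioneins; symbols mark replicates, lines the mean of 3 animals, and each panel has its own level but spans at least 1 log2 unit. The means of Hmox1, Gstp1, Gsta1 and Mgst1 climb over the 3 ages, and of these only Gstp1 has young and middle-aged animals that overlap. Mt1a and the metallothionein-2-like probe LOC682651 are highest at 24 months, with young and middle-aged animals overlapping.

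Ucp2, a mitochondrial carrier that lowers superoxide production in several cell types, was 0.29 ± 0.12 higher in aged animals, which did not pass (limma, adjusted p = 0.29). It read −0.96, −1.05 and −1.21 at 3 months, −0.98, −1.0 and −1.15 at 12 months, and −0.55, −0.95 and −0.83 at 24 months. Aged replicate 1 was the highest, and without it the difference was 0.18.

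The metallothioneins, are small cysteine-rich proteins that bind zinc and copper and scavenge radicals. Mt1a read 1.91, 1.49 and 1.33 at 3 months, 1.07, 1.36 and 1.65 at 12 months, and 2.31, 2.02 and 2.10 at 24 months. Every aged animal lay above all others, and the middle-aged mean was below the young mean. Aged minus young was 0.57 ± 0.18 (limma, adjusted p = 0.19) and aged minus middle-aged 0.79 ± 0.18 (limma, adjusted p = 0.25); neither passed. A second Mt1a probe, which the files tie to an expressed sequence tag, was far dimmer and gave −0.99, so that the mean of both probes turned the difference to −0.21. Mt3, the form enriched in brain, read 6.01, 6.31 and 6.19 at 3 months, 6.06, 6.30 and 6.27 at 12 months, and 6.13, 6.17 and 6.44 at 24 months. It differed by 0.07 ± 0.12 (95% interval −0.20 to 0.34), with all ages overlapping.

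No probe bore the name Mt2A, but the files describe the one for locus LOC682651 as similar to metallothionein-2. It was chosen for mention after its values were seen. It read 1.69, 1.81 and 1.51 at 3 months, 1.66, 1.76 and 1.89 at 12 months, and 2.81, 2.45 and 2.86 at 24 months. Young and middle-aged animals overlapped and all aged animals lay above them. It rose by 1.04 ± 0.13 in aged against young animals, a 2.05-fold difference (limma, adjusted p = 0.0051), and differed by 0.94 ± 0.13 from middle-aged animals without passing (limma, adjusted p = 0.082). The list medians of red blood cell, microglia, and perivascular macrophage and neutrophil markers, given above, were also highest in aged animals. The median of 8 astrocyte markers was −0.01 to 0.04 at 3 months, −0.16 to −0.07 at 12 months and −0.05 to 0.06 at 24 months. Among them Gfap was 0.92 ± 0.23 higher and Aldh1l1 0.54 ± 0.15 lower in aged than in young animals. Neither passed (limma, adjusted p = 0.1 and 0.13). The part of any of these cells in the metallothionein differences was not tested. The LOC682651 probe lies at chr19:11272997-11273056 on the build rn3, and its sequence is shown. Its likeness to metallothionein-2 rests on the array's description, and the sequence was not compared with those of other genes.
LOC682651: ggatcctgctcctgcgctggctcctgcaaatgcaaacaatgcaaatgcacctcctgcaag

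The Mt1a promoter (current symbol Mt1) is shown as the one window among the listed genes with 5 or more matches to the core of the metal response element, through which zinc and other metals act on these genes. It lies on GRCr8 at chr19:10832976-10833225, minus strand, 250 bases before the RefSeq start, 5′ to 3′. Capitals mark matches to TGCACNC or TGCGCNC on either strand.
Mt1a: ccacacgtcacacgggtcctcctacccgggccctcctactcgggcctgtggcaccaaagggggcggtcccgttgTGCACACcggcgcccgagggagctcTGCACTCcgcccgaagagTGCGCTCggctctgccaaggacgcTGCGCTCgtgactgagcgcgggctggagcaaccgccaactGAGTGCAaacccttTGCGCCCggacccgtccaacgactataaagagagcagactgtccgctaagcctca
TGCACNC was matched 3 times, 176, 151 and 69 bases before the start, and TGCGCNC 3 times, 133, 109 and 55 bases before it. Among all 33469 windows 20.6% held at least 1 such core and 0.0747% held 5 or more.

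At 12 months none of the 37 genes passed against young animals, and 0.201% of all items did. At an unadjusted limma p under 0.05, 5 of the 37 differed, against 6.35% of all items: Cyba (0.31 ± 0.11), Ncf1 (0.67 ± 0.18), Ncf4 (0.54 ± 0.19), Gstp1 (0.22 ± 0.09) and Hmox1 (0.25 ± 0.08), each of them higher in middle-aged animals. These fits share the young animals with the comparison of aged and young animals, so they are no separate support for it. Between aged and middle-aged animals none of the 37 passed, and 0.0118% of all items did. At an unadjusted p under 0.05, 6 of the 37 differed, against 10.7% of all items: Cyba (0.45 ± 0.11), Ncf1 (0.47 ± 0.18), Txnip, Nfe2l2, Ucp2 and Mt1a, each higher in aged animals. For 19 of the 37 genes the middle-aged mean lay between the young and aged means. The share over all items was not computed, so this count only describes the listed genes.

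By functional group, the median difference between aged and young animals was 0.88 for the oxidase genes, 0.09 for the superoxide dismutases, 0.05 for peroxide removal, −0.01 for thioredoxin, 0.00 for glutathione, 0.08 for the Nrf2 and heme oxygenase genes and 0.32 for the metallothioneins. Over all items it was 0.03. At 12 months the oxidase median stood at 0.54 above young animals, and the metallothionein median at −0.09.

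**Figure D4:**
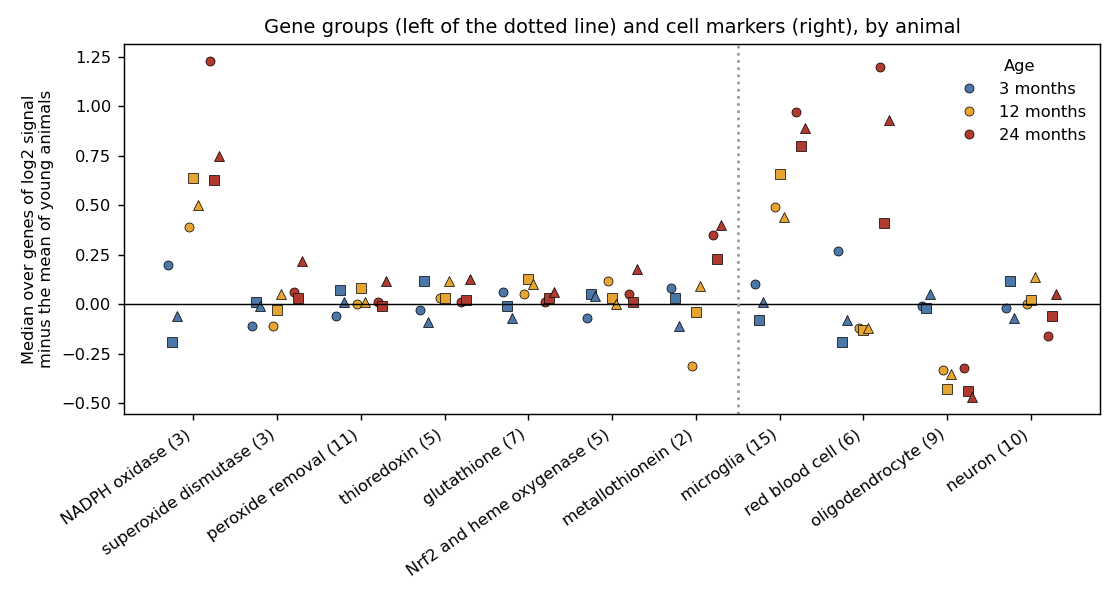
Median over the tested genes of each functional group, and of 4 lists of cell markers, in each animal at 3, 12 and 24 months, in log2 units relative to the mean of young animals; numbers in brackets count genes. The oxidase genes reach 0.63 to 1.23 in aged animals beside 0.80 to 0.97 for microglia markers, and the superoxide dismutase median stays at −0.11 to 0.22 in every animal.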

How the data were processed

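RNA from RVLM micropunches of 9 rats was hybridised to 12 one-colour Agilent arrays. Per the submitters' processing notes the deposited array files were made with Agilent Feature Extraction 9.5.1.1. They hold fluorescence intensity, and per the file headers the processed signal was background-subtracted and detrended. The deposited series matrix holds a score with mean 0 and SD 1 in each array; it was an alternative only, and 1 unit was read as 3.25 log2 units. Here log2 processed signal minus each array's 75th percentile was averaged over spots of a probe and over arrays of an animal. A probe was kept where all arrays of 1 or more ages read well above background (29797 of 41012 probes), and the brightest kept probe stood for a gene. Names came from RefSeq by accession, gene ID, name or synonym. Positions of probes are on rn3 per the file headers, those of promoters on GRCr8, and the builds were not mixed.

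A model of age over the 9 animals was fitted in R 4.3.3 by limma 3.58.1 (prior degrees of freedom 2.64), with 3 contrasts, a moderated F test and Benjamini-Hochberg adjustment over all items. The fit was tested on simulated data. Genes were named by a rule: all listed genes are accounted for, with values per animal for those that passed and for the largest and smallest difference of each functional group, and related genes that passed are named with Rac1 and Rac2. Some genes of the related and marker lists are not reported here. Some further listed genes are given in full, chosen after their values were seen. The 41 genes, the related lists and the marker lists were chosen with earlier results of these data known. Same-numbered animals were not paired by the labels, and their deviations correlated at −0.41 to 0.37. Alternatives covered scaling, background correction, filters, probes, slide, replicate number and leaving out each animal.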

Additional observations from a re-analysis of the deposited data

How the results depend on the processing

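Cyba and Ncf1 were positive in all 21 alternative fits and were called in 18 and 12 of them; Hmox1 was positive in all 21 and called in 5. The count of 3 genes called in aged against young animals was 1 with no filter on dim probes, 1 with only the groups compared and 1 with replicate number as a block, 5 with 12 arrays and animal as a random block, and 0 without the 3 animals that stood apart, an alternative chosen after seeing the data. It was 0 to 3 when 1 animal was left out. With slide as a block Hmox1 was lost. The replicate block moved the calls over all items to 289 higher and 67 lower, against 400 and 120 without it, and its numbers do not pair animals. The count of 1 gene that passed the F test was 0 with the median of each array, no filter, series matrix values, slide as a block, the replicate block or without the 3 animals apart, 2 with normexp correction or only probes well above background on every array, 3 with 12 arrays and animal as a random block, and 0 to 1 when 1 animal was left out. Counts of 0 at 12 months, and for aged against middle-aged animals, were 0 in all fits run. The F test could not be fitted with only 2 groups.

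The oxidase median of 0.88 ranged from 0.69 to 1.05 when 1 animal was left out; at 12 months it was 0.31 with no filter, and aged minus middle-aged was 0.27 within slide 3. Within slide 3, aged minus young medians were 0.24 for superoxide dismutases, 0.14 for thioredoxin, 0.17 for glutathione and 0.49 for metallothioneins. Of the slide 3 animals, the aged and middle-aged ones were among the 3 that stood apart and the young one was not. Leaving out 1 animal gave −0.03 to 0.05 for thioredoxin and −0.04 to 0.17 for glutathione. With the mean of a gene's probes, the medians were 0.02 for the Nrf2 and heme oxygenase genes and −0.07 for metallothioneins. Some differences that did not pass turned sign: Gpx2 to −0.27 within slide 3, Prdx6 to −0.01 with quantile normalization, −0.02 with array medians and −0.13 without the 3 animals apart (−0.10 to 0.14 leaving out 1), Txn2 to 0.01 with slide as a block and 0.03 without the 3 animals apart (−0.06 to 0.05), Mt3 to −0.02 to 0.15, Gstm2 to −0.87 to 0.17, and Mt1a to −0.21 with the mean of its probes. The causes were not tested. Scaling by array medians moved the median of all items to −0.01 from 0.03. Signal over background limits Cybb, Nox4 and Gclm, which could not be tested.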
